A study of Mus musculus with 8 samples.

Results

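The signal regulatory protein (SIRP) genes and Cd47 were followed in bone marrow-derived macrophages (BMDMs) that carry or lack the nuclear coactivator gene Ncoa6. The members were named by symbol. They are Sirpa, the SIRP-beta genes Sirpb1a, Sirpb1b and Sirpb1c, their neighbor Gm5150, and Cd47, 6 genes of the 50615 in the table. They were chosen by name and by their expected counts in these same 4 groups, so their values and fold changes are given as a description and no p-value is given for a member. BMDMs were grown from marrow of C57BL/6 mice in M-CSF (20 ng/ml, 6 days). The genotype of the Ncoa6-KO cells is Ncoa6 fl/fl LysM CRE and that of the Ncoa6-sufficient cells, labeled WT, is Ncoa6 fl/fl, so that the floxed gene is shared by all groups and Cre is carried by the knockout groups only. Cre is driven by the lysozyme 2 (Lyz2) locus, which is active in myeloid cells, and the ages of the mice are not given in the sources used here. Each genotype was kept in medium or primed with LPS (100 ng/ml, 4 h), a bacterial activator of TLR4, before monosodium urate (MSU) crystals were added (200 µg/ml, 2 h), with 2 libraries from different mice in each of the 4 groups.

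SIRPα is an inhibitory receptor of macrophages and other myeloid cells. When its outer V-type immunoglobulin domain binds CD47 on a neighboring cell, tyrosine motifs in its tail recruit the phosphatases SHP-1 and SHP-2, and engulfment of that cell is held back, so CD47 is known as a "don't eat me" signal. The SIRPβ receptors have a similar outer part but a short tail, do not bind CD47 and signal through the adaptor DAP12, which activates the kinase SYK.

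In these BMDMs the inhibitory receptor gene Sirpa far exceeded the other SIRP genes in every library, and its genotypes overlapped under both conditions. With LPS + MSU it was at 80.9% of its level with medium in Ncoa6-sufficient and at 75.9% in Ncoa6-KO BMDMs. Cd47 was about 4 times higher after LPS + MSU than in medium in either genotype. Cd47 and Gm5150 were lower in Ncoa6-KO than in Ncoa6-sufficient libraries under both conditions without overlap. For each condition alone, 24.5% of all genes tested were lower without overlap with medium and 22.7% with LPS + MSU. The share under both conditions was not computed. Gm5150 stood at 24.0% of its Ncoa6-sufficient level after LPS + MSU. Of the SIRP-beta genes, the genotypes of Sirpb1a and Sirpb1b overlapped with medium and those of Sirpb1c with LPS + MSU.

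The libraries held between 25281955 and 33673552 expected counts. Macrophage markers were abundant in all 8, with a lower sum in Ncoa6-KO libraries. With Lyz2 left out, their 8 genes summed to 6678 to 6770 CPM in Ncoa6-sufficient and 5252 to 6106 CPM in Ncoa6-KO libraries with medium, and to 9628 to 9792 against 8447 to 9029 CPM with LPS + MSU. The 7 lymphocyte markers summed to at most 0.329 CPM in any library, and the 9 neutrophil markers to 15.1 to 33.8 CPM. The 7 stromal markers summed to 14.3 to 15.6 CPM in Ncoa6-sufficient and 5.26 to 16.2 CPM in Ncoa6-KO libraries with medium, and to 39.2 to 43.3 against 17.6 to 31.1 CPM with LPS + MSU. Pecam1, which is among these 7, is also in the list of inhibitory receptors below. Its mean with LPS + MSU was 152 normalized counts in Ncoa6-sufficient and 75.4 in Ncoa6-KO libraries. All 7 stromal markers had a log2 difference below 0 between genotypes under both conditions (median -0.59 and -0.91), and none was called by edgeR (1 and 3 at an unadjusted p under 0.05). The 8 dendritic cell markers summed to 10.4 to 12.6 CPM in Ncoa6-sufficient libraries and to 5.78 to 7.97 CPM in Ncoa6-KO libraries, and 3 of them, Siglech, Flt3 and Cd209a, were at 0 in at least 1 group. Most of that sum with medium was Clec10a, with a mean of 280.4 normalized counts in Ncoa6-sufficient libraries and of 166.5 in Ncoa6-KO libraries (edgeR, adjusted p = 0.118). The median log2 difference of the 6 dendritic cell markers tested was 0.03 with medium and -0.57 with LPS + MSU, with none called by edgeR (1 and 2 at an unadjusted p under 0.05). The part of these markers in the results on the members was not tested, and in bulk RNA fewer cells of a type and less RNA per cell cannot be told apart. The targeted gene Ncoa6 had 1515 and 1405 normalized counts in Ncoa6-sufficient and 784 and 622 in Ncoa6-KO libraries with medium. With LPS + MSU it had 1297 and 1173 against 563 and 526. This left 48.2% and 44.1% of its counts over the whole gene (edgeR, adjusted p = 0.00236 and 0.00189). In the paper, the floxed part of Ncoa6 is exon 7. A count over the whole gene does not tell transcripts with that exon from transcripts without it, and their shares were not tested.

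Sirpa lies on chromosome 2 (GRCm38 chr2:129592835-129632228, plus strand) and Cd47 on chromosome 16 (chr16:49800533-49915010, plus strand). The other members form a row on the minus strand of chromosome 3, with Sirpb1a at chr3:15371653-15426520, Sirpb1b at chr3:15495751-15575065, Sirpb1c at chr3:15795145-15848528 and Gm5150 at chr3:15946870-16006437. With Gm9733, the SIRP-like locus before Sirpb1a, the row spans 709887 bp. Exons of Sirpb1b overlap Gm37468 on the opposite strand. The kit keeps the strand, and whether the counting used it is not given in the sources used here.

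The sequences of the chromosome 3 genes decide how far their reads can be told apart. The coding sequences of Sirpb1a, Sirpb1b and Sirpb1c had 1191 bases each and were 97.4% to 98.3% identical, with a longest identical run of 380 bases between Sirpb1b and Sirpb1c and of 140 bases over all 3 genes. Against Sirpa, whose coding sequence had 1539 bases, they were 65.8% to 66.1% identical over the aligned bases, and Sirpa ran on for 330 bases past the last base aligned to Sirpb1c, the stretch that codes for its long tail. The exon that codes for the outer V-type domain had 357 bases in all 5 SIRP genes. Gm5150 holds 2 such exons in a row, exons 2 and 3, which were 96.4% identical to each other. They were 85.2% to 86.6% identical to the exons of Sirpb1a, Sirpb1b and Sirpb1c and 75.9% to 76.5% identical to that of Sirpa. The first 150 bases of these exons (GENCODE transcripts, GRCm38, coding strand 5′ to 3′) are shown because they separate the near-copies from Gm5150 and Sirpa. Capitals mark bases that differ from Sirpb1c, 6 in Sirpb1a, 2 in Sirpb1b, 24 and 26 in the exons of Gm5150 and 43 in Sirpa.
Sirpb1c, exon 2, chr3:15838816-15838965: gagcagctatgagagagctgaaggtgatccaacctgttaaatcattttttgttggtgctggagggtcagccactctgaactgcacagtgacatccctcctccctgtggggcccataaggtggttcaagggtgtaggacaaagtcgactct
Sirpb1b, exon 2, chr3:15548798-15548947: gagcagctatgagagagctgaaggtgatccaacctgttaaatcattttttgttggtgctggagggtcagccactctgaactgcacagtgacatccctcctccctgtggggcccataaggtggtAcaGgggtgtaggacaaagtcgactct
Sirpb1a, exon 2, chr3:15417044-15417193: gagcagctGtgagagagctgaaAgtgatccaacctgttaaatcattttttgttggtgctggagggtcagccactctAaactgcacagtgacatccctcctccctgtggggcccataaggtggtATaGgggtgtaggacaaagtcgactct
Gm5150, exon 2, chr3:15990837-15990986: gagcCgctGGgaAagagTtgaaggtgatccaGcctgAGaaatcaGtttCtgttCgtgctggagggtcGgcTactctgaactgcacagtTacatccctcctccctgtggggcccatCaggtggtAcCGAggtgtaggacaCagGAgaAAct
Gm5150, exon 3, chr3:15963526-15963675: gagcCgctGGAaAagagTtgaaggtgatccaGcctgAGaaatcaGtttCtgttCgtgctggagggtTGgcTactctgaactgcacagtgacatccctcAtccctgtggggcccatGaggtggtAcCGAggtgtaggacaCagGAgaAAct
Sirpa, exon 2, chr2:129608904-129609053: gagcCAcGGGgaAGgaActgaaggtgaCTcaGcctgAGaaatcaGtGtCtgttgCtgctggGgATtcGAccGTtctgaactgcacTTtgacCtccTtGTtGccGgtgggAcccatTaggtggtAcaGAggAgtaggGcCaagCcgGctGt

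Reads of 100 bases were sequenced from both ends of each fragment. Of the 100-base windows in the transcripts of Sirpb1a, Sirpb1b and Sirpb1c, 23.0%, 39.3% and 31.0% were identical to a window of another gene, in each case of another of these 3. None of the windows of Sirpa, Gm5150 or Cd47 was shared with another gene. RSEM divides a read that fits several genes among them, and the expected counts of Sirpb1a, Sirpb1b and Sirpb1c carried fractions in 8 of 8 libraries, whereas those of Sirpa, Gm5150 and Cd47 were whole numbers in 8 of 8. The split of reads among the 3 SIRP-beta genes is therefore an estimate, and each is given below also as their sum.

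**Figure D1:**
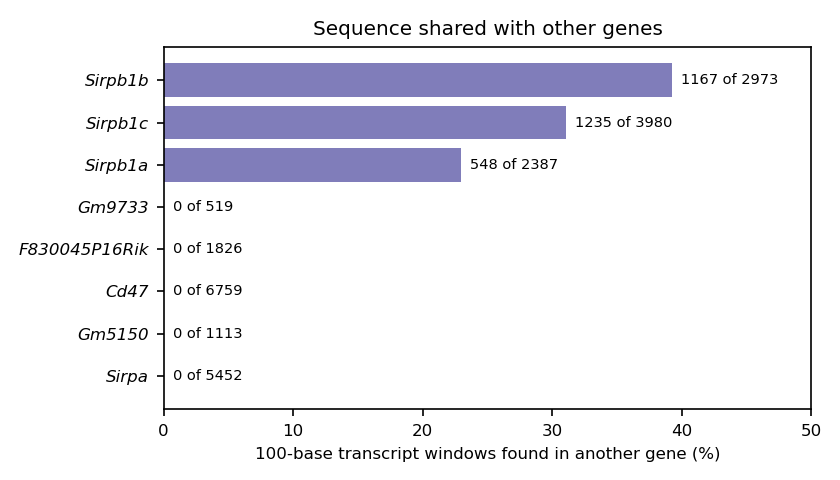
Share of 100-base transcript windows (x axis, percent) that were identical to a window of another gene, for the 6 members and the SIRP-like loci F830045P16Rik and Gm9733 (bars, with counts of windows). The bars of Sirpb1a, Sirpb1b and Sirpb1c reach 23.0%, 39.3% and 31.0%, and the other genes are at 0.

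Around their start sites the 4 chromosome 3 genes are also alike. RefSeq promoters (250 bases before to 50 after the start) were given for these 4 genes and Cd47. A stretch of 195 aligned positions was covered by all 4 chromosome 3 promoters, of which 162 were the same in every one. Over it, Sirpb1a, Sirpb1b and Sirpb1c were 94.8% to 97.9% identical to one another and Gm5150 was 85.6% to 86.6% identical to them. The annotated start sites differ in place, so that the stretch begins 237 bases before the start of Sirpb1a, 144 before that of Sirpb1b, 185 before that of Sirpb1c and 250 before that of Gm5150. It is shown (GRCm38.p6, coding strand) because the genes that share it had different levels per kb of exon with medium in both genotypes. The part of the promoter differences in these levels was not tested. Capitals again mark differences from Sirpb1c.
Sirpb1c, chr3:15848479-15848672: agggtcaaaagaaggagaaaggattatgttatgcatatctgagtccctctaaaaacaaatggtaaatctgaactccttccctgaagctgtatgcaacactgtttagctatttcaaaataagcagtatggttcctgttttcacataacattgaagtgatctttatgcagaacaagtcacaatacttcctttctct
Sirpb1b, chr3:15575016-15575209: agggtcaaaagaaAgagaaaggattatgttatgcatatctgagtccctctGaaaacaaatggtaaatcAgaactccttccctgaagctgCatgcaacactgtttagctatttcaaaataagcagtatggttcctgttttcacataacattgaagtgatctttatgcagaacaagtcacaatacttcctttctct
Sirpb1a, chr3:15426471-15426664: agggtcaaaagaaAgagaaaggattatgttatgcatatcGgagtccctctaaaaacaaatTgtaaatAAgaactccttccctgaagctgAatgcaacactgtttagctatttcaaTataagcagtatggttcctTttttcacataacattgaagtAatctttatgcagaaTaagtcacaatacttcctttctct
Gm5150, chr3:16006388-16006582: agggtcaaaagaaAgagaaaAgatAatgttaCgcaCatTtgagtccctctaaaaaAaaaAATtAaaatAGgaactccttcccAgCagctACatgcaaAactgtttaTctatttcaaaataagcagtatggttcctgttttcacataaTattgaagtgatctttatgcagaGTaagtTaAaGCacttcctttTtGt

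Short motifs were searched on both strands of the 300-base promoters, with the motifs chosen after these promoters had been seen. The letters AGGAAGT, which ETS-family factors such as PU.1 can bind, occurred in all 4 chromosome 3 promoters and in 9.57% of the 27025 promoters. They stand near the end of each printed stretch as acttcct, their other strand. An interferon-type motif, the letters GAAA repeated after any 2 bases, occurred in Sirpb1a, Sirpb1b and Gm5150, near the beginning of the stretch, not in Sirpb1c, and in 3.49% of all promoters. The GATA-type letters AGATAA occurred in Gm5150 alone of these genes, directly after the interferon-type motif without overlap, and in 11.4% of all promoters. An NF-κB-type motif, the letters GGG and TTTCC around any 2 bases (1.62% of all promoters), and the letters TATAAA (14.2%) occurred in none of the 5 promoters, and that of Cd47 held none of the 5 motifs.

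Per length, Sirpa had the highest level of the members in every group. It had 539.8 ± 33.9 CPM per kb of exon (SD, n = 2 here and below) in Ncoa6-sufficient and 558.8 CPM per kb in Ncoa6-KO BMDMs with medium, and 436.5 and 424.1 CPM per kb with LPS + MSU. Cd47 came next, at 28.6 and 21.2 CPM per kb with medium and 118.4 and 96.4 CPM per kb with LPS + MSU. The other members lay between 0.252 and 2.62 CPM per kb. Sirpa held 99.0% to 99.6% of the counts of the 5 SIRP genes in each library. With medium the order below Cd47 was Sirpb1c, Gm5150, Sirpb1b and Sirpb1a in both genotypes. Per kb of exon, the libraries of neighbors in that order did not overlap. The nearest, in Ncoa6-sufficient BMDMs, were 2.260 for Sirpb1c and 2.257 for Gm5150. With the longest transcript as the length, Gm5150 (1.11 and 1.21 CPM per kb) and Sirpb1b (1.01 and 1.25) overlapped in Ncoa6-KO BMDMs with medium. In Ncoa6-sufficient BMDMs with LPS + MSU, Gm5150, Sirpb1c and Sirpb1b were at 2.62, 2.02 and 1.78 CPM per kb and the libraries of neighbors overlapped, and Gm5150 and Sirpb1c changed places when the longest transcript was used as the length (2.63 against 2.99 CPM per kb). In Ncoa6-KO BMDMs with LPS + MSU, Gm5150 was below Sirpb1c and Sirpb1b, at 0.623 against 1.70 and 1.197 CPM per kb, with no overlap between neighbors.

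The next values are normalized counts. They bring each library to the same effective size and compare groups for one gene, not genes with each other. Fold changes and their standard errors (SE) come from the edgeR fit across all 17625 genes tested, and a gene counts as called at an adjusted p under 0.05.

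Sirpa, the inhibitory receptor gene, had 81200 and 74303 normalized counts in Ncoa6-sufficient and 86038 and 74940 in Ncoa6-KO BMDMs with medium. With LPS + MSU it had 62185 and 63582 against 64402 and 57786. The genotypes overlapped under both conditions, while the libraries with LPS + MSU were below those with medium in both genotypes. The share of all genes without overlap between conditions is not given here. In these responses 55.2% (Ncoa6-sufficient) and 53.1% (Ncoa6-KO) of all genes were called. On the log2 scale the knockout difference was 0.05 (SE 0.126) with medium and -0.04 (SE 0.126) with LPS + MSU. Sirpa was lower by a log2 of -0.31 (SE 0.126) with LPS + MSU in Ncoa6-sufficient and of -0.40 (SE 0.126) in Ncoa6-KO BMDMs.

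Cd47, the ligand of SIRPα and also a partner of integrins, had 5505 and 5030 normalized counts in Ncoa6-sufficient and 4285 and 3530 in Ncoa6-KO BMDMs with medium. With LPS + MSU it had 22254 and 21321 against 19757 and 15740. The Ncoa6-KO libraries were below the Ncoa6-sufficient libraries under both conditions without overlap, by a log2 of -0.43 (SE 0.135) and -0.30 (SE 0.135), or 74.2% and 81.5% of the Ncoa6-sufficient level. LPS + MSU went with 4.14-fold (log2 2.05, SE 0.14) more Cd47 in Ncoa6-sufficient and 4.54-fold (log2 2.18, SE 0.141) more in Ncoa6-KO BMDMs.

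Gm5150, the SIRP-like gene with a doubled V-type exon, had 80.3 and 57.6 normalized counts in Ncoa6-sufficient and 39.6 and 43.0 in Ncoa6-KO BMDMs with medium. With LPS + MSU it had 124.7 and 62.0 against 26.1 and 18.2. The 4 Ncoa6-KO libraries were below the 4 Ncoa6-sufficient libraries, and the highest value was that of the first Ncoa6-sufficient library with LPS + MSU. These values rest on few reads, from 45 to 107 counts in the Ncoa6-sufficient and from 13 to 57 in the Ncoa6-KO libraries. The knockout difference on the log2 scale was -0.74 (SE 0.329) with medium and -2.06 (SE 0.39) with LPS + MSU. From medium to LPS + MSU, Gm5150 differed by a log2 of 0.43 (SE 0.323) in Ncoa6-sufficient BMDMs, where the libraries overlapped, and of -0.89 (SE 0.402) in Ncoa6-KO BMDMs, where they did not. The difference between these 2 values was -1.32 (SE 0.516). The share of all genes without overlap between conditions is not given here, and 53.1% were called in the response of Ncoa6-KO BMDMs. Without the first Ncoa6-sufficient library with LPS + MSU, the knockout difference with LPS + MSU was -1.48 and the response of Ncoa6-sufficient BMDMs was -0.11. With LPS + MSU the summed stromal markers (17.6 to 31.1 against 39.2 to 43.3 CPM), the macrophage markers without Lyz2 (8447 to 9029 against 9628 to 9792 CPM) and the dendritic cell markers (7.93 to 7.97 against 11.0 to 12.6 CPM) were also lower in Ncoa6-KO libraries, and their part in these values was not tested.

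Sirpb1a had 40.5 and 19.8 normalized counts in Ncoa6-sufficient and 21.6 and 12.3 in Ncoa6-KO BMDMs with medium, and 45.7 and 38.6 against 18.3 and 23.8 with LPS + MSU. The genotypes overlapped with medium and were apart with LPS + MSU, where the log2 difference was -1.0 (SE 0.451). Sirpb1b had 111.8 and 88.6 against 74.4 and 92.2 normalized counts with medium, and 184.3 and 117.1 against 99.3 and 102.1 with LPS + MSU. It too was apart only with LPS + MSU, by a log2 of -0.58 (SE 0.245). Sirpb1c, the SIRP-beta gene with the most reads, had 243.9 and 256.3 against 218.3 and 230.1 normalized counts with medium, and 263.2 and 173.5 against 175.1 and 193.1 with LPS + MSU. Its genotypes were apart with medium by a log2 of -0.16 (SE 0.172) and overlapped with LPS + MSU (log2 -0.25, SE 0.189), where the sign turned (0.07) without the first Ncoa6-sufficient library.

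Summed, which does not depend on how shared reads were split, the 3 SIRP-beta genes had 397.0 and 365.6 normalized counts in Ncoa6-sufficient and 314.2 and 334.6 in Ncoa6-KO BMDMs with medium, and 493.2 and 329.1 against 292.7 and 319.0 with LPS + MSU. The sums of the genotypes did not overlap under either condition, though with LPS + MSU the nearest were 329.1 and 319.0. Of all genes tested, 24.5% with medium and 22.7% with LPS + MSU were also lower without overlap, each condition taken alone. The share under both was not computed. The log2 differences of the sum were -0.24 (SE 0.163) and -0.43 (SE 0.173), smaller than those of Sirpb1a alone, and neither was called by edgeR. From medium to LPS + MSU the sum differed by 0.11 (SE 0.166) in Ncoa6-sufficient and by -0.08 (SE 0.17) in Ncoa6-KO BMDMs.

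**Figure D2:**
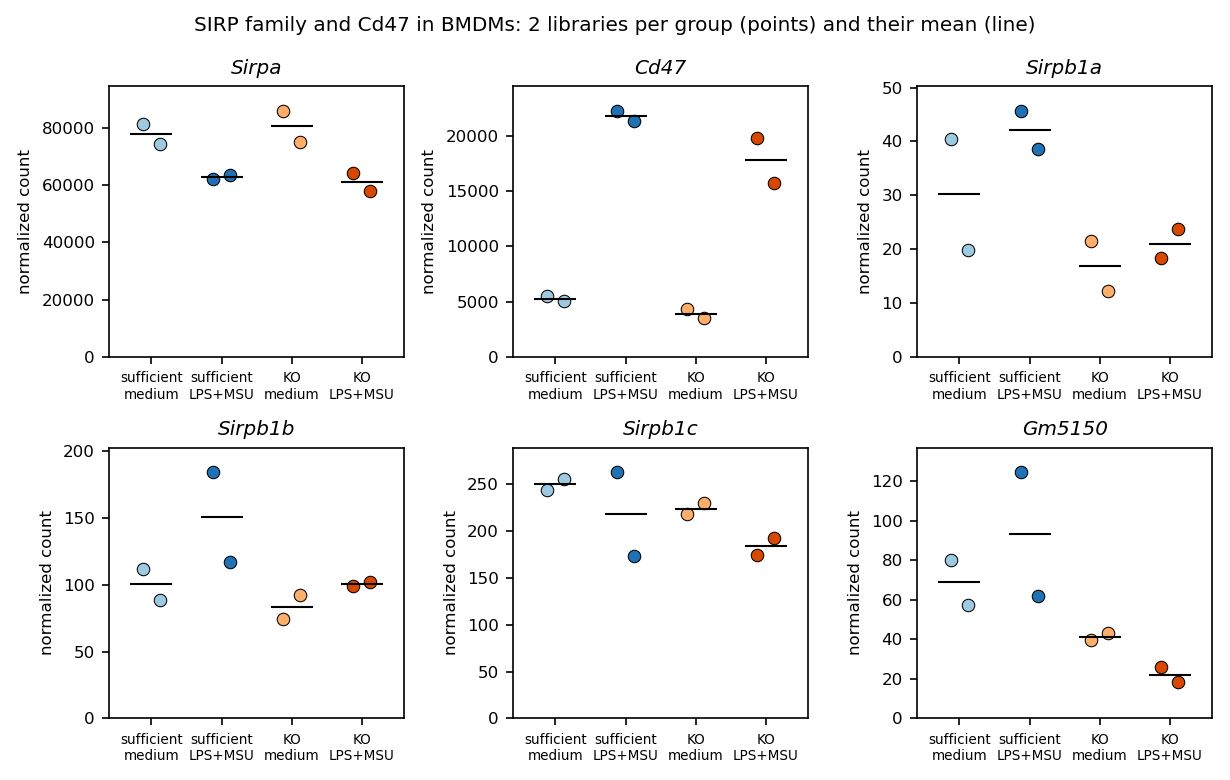
Normalized counts (y axis, linear from 0) of the 6 members in the 8 libraries, with 2 points per group and a line at their mean. Cd47 is highest in the 4 libraries with LPS + MSU (15740 to 22254), and the 4 Ncoa6-KO libraries of Gm5150 (18.2 to 43.0) are below all of its Ncoa6-sufficient libraries (57.6 to 124.7).

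Read across the members, 0 of 6 were called in the knockout comparison with medium, in which 1.88% of all genes tested were called, and 1 of 6, Gm5150, with LPS + MSU, in which 3.59% were called (1.63% as lower). All 6 members passed the filter on low counts. The libraries of the genotypes did not overlap for 3 members with medium, all lower in Ncoa6-KO (24.5% of all genes), and for 4 with LPS + MSU, all lower (22.7% of all genes). Cd47 was called in the response of Ncoa6-sufficient BMDMs, where 55.2% of all genes were, and Cd47 and Sirpa in that of Ncoa6-KO BMDMs, where 53.1% were. In the interaction, the difference between the knockout effects, 0 of 6 members and 0% of all 17625 genes were called by edgeR, and 1045 genes (5.93%) had an unadjusted p under 0.05. DESeq2 called 43 genes, and edgeR without a filter on low counts called 269 of 24645. The counts with the replicate block are given in the last section. Since the members were chosen with these values known, nothing is read from these counts. The comparisons of genotypes and conditions also share libraries. The call of Gm5150 was lost with limma-voom (log2 -1.97), in a fit of only the 4 libraries compared (-2.06), and without the first Ncoa6-sufficient library (-1.48) or either Ncoa6-KO library (-2.37 and -1.84) with LPS + MSU. In the response of Ncoa6-sufficient BMDMs, DESeq2's size factors moved all genes by a median log2 of 0.11 against edgeR's, and with them Sirpa was at -0.19, Sirpb1b at 0.70 and Cd47 at 2.16.

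**Figure D3:**
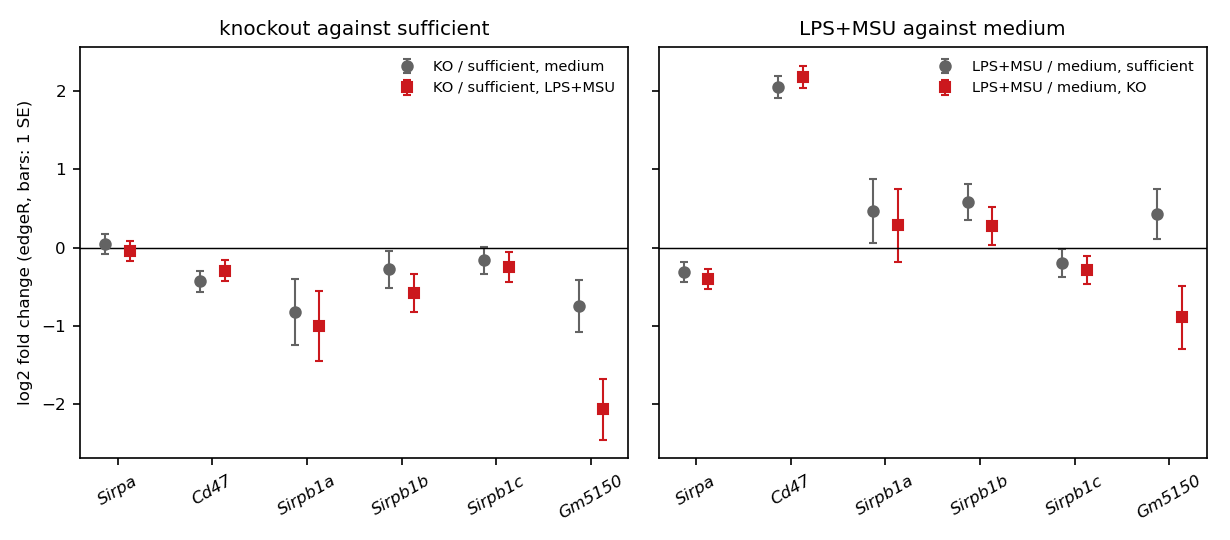
Log2 fold changes (y axis) of the 6 members, Ncoa6-KO against Ncoa6-sufficient (left) and LPS + MSU against medium (right), with 1 SE from edgeR as bars. Gm5150 with LPS + MSU is lowest at -2.06, Sirpa is near 0 between genotypes, and Cd47 is at 2.05 and 2.18 between conditions.

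The other SIRP-like loci were low. Gm9733 had at most 9.70 normalized counts in any library and 0 in 3 of 8 libraries. F830045P16Rik, which has the synonym Sirpb3 in RefSeq and lies next to Sirpa on chromosome 2, was added for that synonym. It had 24.0 to 29.2 normalized counts with medium and, with LPS + MSU, 11.1 and 9.64 in Ncoa6-sufficient and 11.8 and 21.0 in Ncoa6-KO BMDMs. Its genotypes overlapped with medium, and the Ncoa6-KO libraries were the higher ones with LPS + MSU. Sirpd and Sirpg had no entry in the table.

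The proteins that SIRPα, SIRPβ and CD47 work with were taken as a list of 26 genes, of which 24 passed the filter. Sftpa1 and Sftpd, surfactant proteins that bind SIRPα, did not. With medium, 1 gene of the list rose and 1 fell in Ncoa6-KO BMDMs and 22 did not pass the test (edgeR, median log2 of the list -0.08, of all genes -0.03), where 1.88% of all genes were called. With LPS + MSU, 2 rose, 3 fell and 19 did not pass (median -0.06, of all genes 0.00), where 3.59% of all genes were called. Since the partner list was chosen with earlier results of these data known, its counts and medians are a description. These counts depended on single libraries. With medium no gene was called once the first Ncoa6-sufficient library of that condition was left out, and 1 was called when the second, either Ncoa6-KO library with medium or either Ncoa6-sufficient library with LPS + MSU was. With LPS + MSU the count fell to 0 and 3 when the first or the second Ncoa6-sufficient library was left out, to 2 and 1 when the first or the second Ncoa6-KO library was, and to 2 when either Ncoa6-sufficient library with medium was. Partners that were not called are named below for their role, after their values were seen.

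Of the phosphatases that the tail of SIRPα recruits, Ptpn6 (SHP-1) had 8289 and 7856 normalized counts in Ncoa6-sufficient and 5573 and 5147 in Ncoa6-KO BMDMs with medium. It fell by 0.59 on the log2 scale (edgeR, adjusted p = 0.0317). With LPS + MSU it had 14169 and 13489 against 10953 and 8922 (log2 -0.48, adjusted p = 0.0498, at the limit, in edgeR). Its genotypes did not overlap under either condition. The call of Ptpn6 with LPS + MSU was lost with filterByExpr, another filter on low counts, and in a fit of only the libraries compared. With single libraries left out, its log2 difference ranged from -0.648 to -0.534 with medium and from -0.65 to -0.34 with LPS + MSU. Ptpn11 (SHP-2) differed by 0.01 and -0.06 and was not called (edgeR, adjusted p = 0.994 and 0.837).

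Among the Src-family kinases, which phosphorylate such tails and the DAP12 motif, Src was higher in Ncoa6-KO BMDMs with LPS + MSU, with 2899 and 2837 against 1714 and 1898 normalized counts (log2 0.67, edgeR, adjusted p = 0.0258). Lyn was lower without passing the test (log2 -0.38 and -0.51, edgeR, adjusted p = 0.19 and 0.0508), and its genotypes did not overlap under either condition.

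On the DAP12 side, which serves the SIRPβ receptors, the genotypes overlapped for the adaptor gene Tyrobp (DAP12), with 13917 and 10809 against 12331 and 11004 normalized counts with medium and 12900 and 10768 against 12223 and 11390 with LPS + MSU. It differed by a log2 of -0.08 (SE 0.14) and 0.00 (SE 0.14). Syk, the kinase it activates, differed by -0.10 (SE 0.11) and -0.06 (SE 0.11), and Plcg2 by -0.05 (SE 0.101) and -0.08 (SE 0.102). None of these passed the edgeR test between genotypes.

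Of the partners of CD47, Itgb3 (integrin β3) was higher in Ncoa6-KO BMDMs, with 1439 and 1508 against 555 and 597 normalized counts with medium and 305 and 506 against 124.7 and 150.1 with LPS + MSU. The increase was 2.56-fold and 2.94-fold (edgeR, adjusted p = 0.00463 and 0.00518). Its partner chain Itgav and Itgb1 were not called. The soluble ligand Thbs1 (thrombospondin 1) fell by 0.82 on the log2 scale in Ncoa6-KO BMDMs with LPS + MSU (1030 and 1357 against 2508 and 1691 normalized counts, edgeR, adjusted p = 0.0422). With medium it was at -0.42 and was not called. Itgam (CD11b), an integrin chain of macrophages, fell by 0.51 with LPS + MSU (edgeR, adjusted p = 0.0412). The calls of Thbs1 and Itgam with LPS + MSU were lost in a fit of only the libraries compared, and that of Thbs1 also with limma-voom. With single libraries left out, the log2 difference ranged from -1.085 to -0.515 for Thbs1 and from -0.606 to -0.428 for Itgam. Qpctl, which modifies the end of CD47 that SIRPα contacts, differed by 0.14 and 0.25 and was not called.

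**Figure D4:**
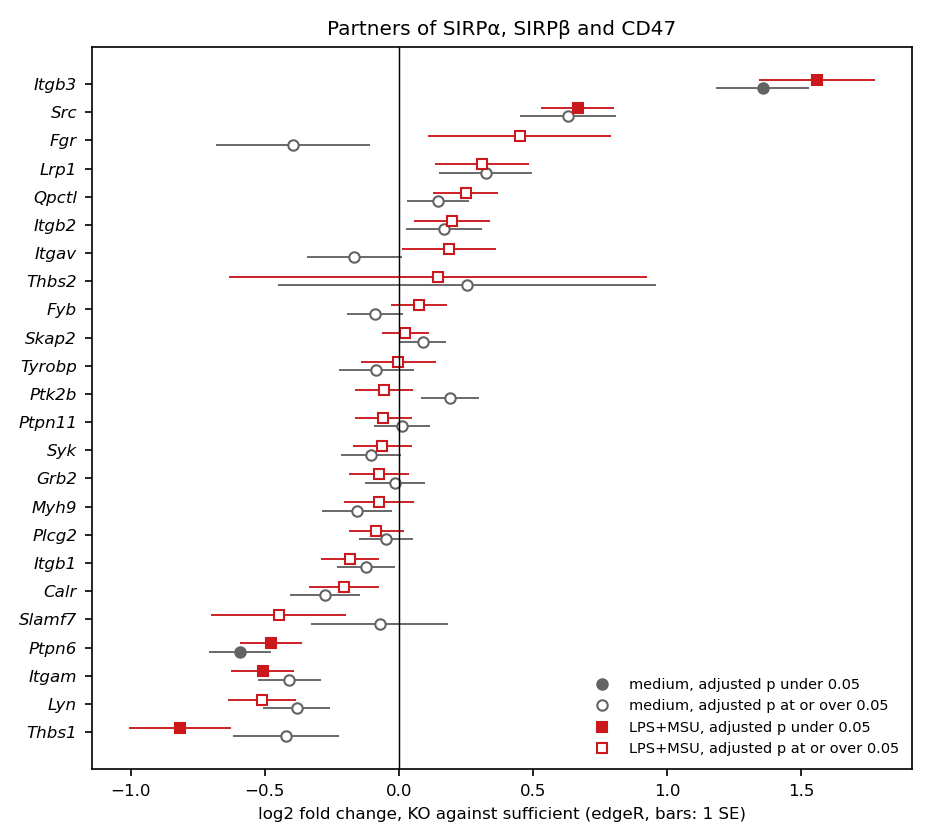
Log2 fold change in Ncoa6-KO against Ncoa6-sufficient BMDMs (x axis, with 1 SE from edgeR) for the 24 partner genes tested, with medium (circles) and with LPS + MSU (squares). Filled symbols passed an adjusted p under 0.05, which were Itgb3 and Ptpn6 with medium and these and Src, Itgam and Thbs1 with LPS + MSU.

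With LPS + MSU against medium, 11 partners rose and 3 fell in Ncoa6-sufficient cells, and in Ncoa6-KO cells 12 rose and 2 fell, of 24 tested in each. These counts were near the background, since 55.2% and 53.1% of all genes were called in these responses. Slamf7, a receptor that aids engulfment when CD47 is blocked, rose 25.8-fold (2992 and 2211 to 76782 and 57454 normalized counts, edgeR, adjusted p = 1.34e-07). The kinase genes Src and Lyn rose 18.6-fold and 5.06-fold, Thbs1 4.08-fold and Itgav 3.78-fold. Itgb3 fell to 23.9% of its level with medium, Myh9 (myosin IIA), which SIRPα signaling is known to restrain, to 55.9%, and Fgr to 52.8% (edgeR, adjusted p = 6.4e-06, 0.000215 and 0.0293). The call of Fgr was lost with DESeq2 and with its size factors. None of the 24 partners was called in the interaction by edgeR, and 0 had an unadjusted p under 0.05.

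Other receptors of the same kinds were taken as further lists. Of 17 other inhibitory receptors with tyrosine motifs that were tested, 5 fell and none rose in Ncoa6-KO BMDMs with medium, and 4 fell and none rose with LPS + MSU (edgeR). Of all genes tested, 1.88% and 3.59% were called in these comparisons, in either direction (with LPS + MSU, 1.63% as lower). Since these lists were chosen with earlier results of these data known, their counts and medians are a description. The median log2 of the list was -0.50 and -0.39, against -0.03 and 0.00 over all genes. Pilra fell to 32.5% and 26.6% of its Ncoa6-sufficient level (746 and 539 to 199 and 220 normalized counts with medium, 4171 and 3276 to 1079 and 900 with LPS + MSU, edgeR, adjusted p = 0.00229 and 0.000596). Siglece, a sialic acid receptor, fell to 34.4% and 51.7%, and Cd300lf, a lipid receptor, to 60.2% and 43.7%. Cd72 was at 51.4% with medium, and Clec4a2 at 60.7% and 61.4%. Of 10 tested receptors that signal through DAP12 as SIRPβ does, 2 fell with medium and 3 with LPS + MSU, and none rose (median log2 -0.24 and -0.06), beside the same shares and medians of all genes. They were Pilrb1 (27.5% and 26.5%), Pilrb2 (33.2% and 30.4%) and, with LPS + MSU, Cd300e (49.4%, edgeR, adjusted p = 0.0178). Pilrb1 and Pilrb2 are close copies that can share reads, so the split between them is uncertain. The calls of Clec4a2 and Pilrb2 with medium were each lost in 3 of the alternatives that kept all libraries or the 4 compared. Of these named receptors, only Pilra kept its call under both conditions whichever single library was left out. In those fits with medium, the log2 difference ranged from -0.91 to -0.54 for Clec4a2 and from -2.23 to -1.19 for Pilrb2.

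The genes whose pattern was most like that of a member were taken by Pearson's r of log2 CPM over the 8 libraries, which fall into 4 groups, as a description. For Cd47 they were Psme1, Dnase1l3 and Gsdmd (r of 0.9991 to 0.9993), and 2842 of 11207 genes had an r over 0.9 with it. For Sirpa they were Mia3, Rell1 and Aldh3a2 (0.981 to 0.988), with 1256 genes over 0.9. For Gm5150 they were Eml4, Lonp2 and Fam49b (0.944 to 0.953), with 15 genes over 0.9. Those of Sirpb1a were Gm6472, Gm6169 and Pak4, those of Sirpb1b Arpc2, Nacc1 and Crk, and those of Sirpb1c 0610010K14Rik, Ppp1r8 and Tnfrsf12a, all at an r of at least 0.921. Between members that can share reads, r was 0.729 for Sirpb1a and Sirpb1b, 0.224 for Sirpb1b and Sirpb1c, and 0.133 for Sirpb1a and Sirpb1c. It was 0.626 to 0.644 for Gm5150, which shared no window, with each SIRP-beta gene, and -0.868 for Sirpa and Cd47.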

How the data were processed

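Stranded poly(A) libraries of 2 × 100-base reads from 8 BMDM cultures were analyzed. The authors aligned the reads with STAR 2.7.3a to GRCm38 and deposited the expected counts per gene that RSEM 1.3.3 estimated with annotation release 101, without normalization. RSEM gives fractions where reads are shared between genes.

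Expected counts were rounded, and 17625 genes with a sum of at least 10 were kept. The 4 groups were fitted together by the quasi-likelihood method of edgeR 4.0.16 (R 4.3.3) after TMM scaling, which leaves 4 residual degrees of freedom. p-values were adjusted by the Benjamini-Hochberg method. An exact permutation test of 2 against 2 libraries cannot go below 0.333. A normalized count is the count at an effective library size of 29332189, the mean of the 8. CPM per kb uses the exon union length of GENCODE M21 (GRCm38). Sequences were aligned with MAFFT 7.526. The members and lists were chosen with earlier results of these data known. Named were all members and other SIRP-like loci, partners called between genotypes, the 5 called partners that rose or fell most in the response of Ncoa6-sufficient BMDMs, up to 5 called genes of each receptor list, and the 3 genes most like each member (mean of at least 50 normalized counts). Alternatives were DESeq2 1.42.0, its size factors, limma-voom (limma 3.58.1), filterByExpr, no filter, unrounded counts, the replicate number as a block, a fit of the 4 compared alone, each library left out in turn, and, chosen after seeing the data, the sum of the 3 SIRP-beta genes. The block was also set within each genotype for the responses and the interaction. The edgeR fit was tested on simulated data. An item that the lists would hold is not reported here.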

Additional observations from a re-analysis of the deposited data

How the results depend on the processing

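Between genotypes with medium, 2 partner genes were called, against 4 with DESeq2, 6 without a filter on low counts, 5 with the replicate block, and 0 to 2 when 1 library was left out. With LPS + MSU 5 were called, against 2 in a fit of only the 4 libraries compared, 7 with the replicate block, and 0 to 6 when 1 library was left out. The responses kept within 1.5 times their counts of 14 and 14 (17 and 17 with the replicate block), and the interaction had 0 in every alternative run. Over all genes, edgeR called 86 in the interaction with the replicate block and 444 with the block set within each genotype. The cause of these differences was not tested. The numbers 1 and 2 are not stated to mark the same mouse, and differences between replicates correlated across groups with r from 0.052 to 0.369, so the replicate block stands only here. Of the fold changes of members, 260 of 277 under the alternatives that left out no single library had the same sign and side of the limit, 15 passed it anew (with the block, Cd47 between genotypes at -0.44 and -0.30) and 2 no longer passed. Leaving out 1 library turned the sign of 13 of 240, with ranges of -0.052 to 0.15 and -0.14 to 0.031 for Sirpa between genotypes with medium and with LPS + MSU, -0.53 to 0.074 for Sirpb1c between genotypes with LPS + MSU, -0.48 to 0.12 for Sirpb1c and -0.11 to 0.90 for Gm5150 in the response of Ncoa6-sufficient BMDMs, -0.036 to 0.77 for Sirpb1a in that of Ncoa6-KO BMDMs, and, in the interaction, -0.23 to 0.01 for Sirpa, -0.80 to 0.30 for Sirpb1a, -0.65 to 0.009 for Sirpb1b, -0.41 to 0.19 for Sirpb1c and -0.093 to 0.28 for Cd47. A library left out leaves a group of 1, assumed to vary like the others. The longest transcript as length moved 14 of 24 levels by more than their SD. With 13 to 107 counts for Gm5150 and 14 to 54 for Sirpb1a, depth limits these genes.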
